A study of Mus musculus with 14 samples.

Results

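The genes described here are 7 mouse genes whose human counterparts are mutated in amyotrophic lateral sclerosis (ALS) or closely related disease: Sod1, Tardbp, Vcp, Optn, Vapb, Chmp2b and Sqstm1. They were chosen by symbol, and all 7 were found among the 19215 genes of the RNA-seq of whole spinal cord (WSC). Their cassette exons, exons that can be kept or skipped in the mature RNA, were found by the gene number in the exon name, which gave 2 of 13189 exons. All 7 were also found among the 22367 protein-coding genes on which the reads of NOVA HITS-CLIP, the sequencing of RNA crosslinked to the neuronal splicing factor NOVA, were counted.

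ALS is a disease in which motoneurons die, and it has many genetic causes. SOD1 is the cytoplasmic enzyme that removes superoxide. TDP-43, the product of Tardbp, is a nuclear RNA-binding protein that controls splicing and that lowers its own mRNA by binding in its 3′UTR. SQSTM1 (p62) and OPTN are autophagy receptors that tie ubiquitinated cargo to the autophagosome membrane, VCP is the ATPase that extracts ubiquitinated proteins from membranes and complexes, CHMP2B is a subunit of the membrane-cutting ESCRT-III complex, and VAPB is an anchor of the endoplasmic reticulum to other organelles. NOVA, which is found in neurons, binds RNA at YCAY, where Y is C or T. This means TCAT or TCAC on the sense strand, and also the forms that begin with C, CCAT or CCAC.

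The RNA-seq comprised 1 male and 1 female library, each from the spinal cord of a 12-week-old Tg(SOD1)2Gur/J mouse of B6/SJL background. Both mice carried this transgene of human wild-type SOD1, so that reads of Sod1 may come from the mouse gene or from the human one, and there was no library without it. The CLIP mice were 3-month-old C57BL/6 animals with no SOD1 transgene. In the hemizygous lines Chat:GFP-Nova #6 (Chat6) and #17 (Chat17), GFP-tagged NOVA2 was made under the Chat gene in motoneurons and was precipitated from pooled cords with antibodies to GFP, in 4 libraries a line. In the 4 WSC CLIP libraries the endogenous NOVA1 and NOVA2 of all neurons of a wild-type cord were precipitated with an antibody to NOVA itself. Cell type, NOVA paralog, transgene, tag, antibody, pooling and depth therefore differ together between Chat and WSC, and their parts in a difference cannot be told apart.

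The RNA-seq libraries held 72006019 (male) and 65625173 (female) reads on genes. The CLIP libraries held 65961 to 871804 reads in the Chat lines and 2213104 to 6095995 reads in WSC. Of the reads on genes, 53.7% to 66.8% were intronic in the Chat libraries and 34.3% to 39.5% in WSC. In the RNA-seq, 5 oligodendrocyte markers had a median of 651 RPKM and 4 neuronal markers one of 212 RPKM, whereas the RPKM of 4 skeletal muscle markers summed to at most 1.15 and that of 4 sensory ganglion markers to at most 0.146. In CLIP, 3 of 3 tested motoneuron markers were higher in the Chat lines and 5 of 5 inhibitory interneuron markers and 3 of 3 astrocyte markers were lower. Of 3 tested oligodendrocyte markers 1 was lower and 2 were not called, and of 4 neuronal markers 1 was higher and 3 were not called. Over all 4538 tested genes 27.6% were higher and 29.3% lower. Chat, one of these motoneuron markers, is also the gene that drives the transgene.

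The sequences below are those under the highest coverage of the pooled WSC libraries in each gene, 30 bases in the sense of the RNA, with each YCAY in capitals. They are shown because they mark where on these mRNAs NOVA was crosslinked most often. Positions are on mm9 and count from 1.
Sod1, chr16:90226529-90226558, plus strand: gacTCATctgctaccctcaaaCCATtaaac
Tardbp, chr4:147991779-147991808, minus strand: TCATttcaaatgtttatggaagaagcactt
Vcp, chr4:42992902-42992931, minus strand: tgttggaagattaaTCATaagcagtttcta
Optn, chr2:4941710-4941739, minus strand: atttgtatattaaggCCATaTCACcagttt
Vapb, chr2:173604789-173604818, plus strand: gaccgatccagttctgctcaactatgtagc
Chmp2b, chr16:65540035-65540064, minus strand: tttaatgCCATtaggcgtcaacgtaaagag
Sqstm1, chr11:50013692-50013721, minus strand: ccCCATgtagcttcctctgacttggtttgt

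Of these 7 windows, 6 held YCAY and that of Vapb did not. The nearest YCAY to the Vapb maximum began 23 nt upstream of it. Over all 9584 genes whose pooled WSC coverage reached 10 reads, 89.8% of such windows held YCAY, against 38.1% of windows placed 100 nt downstream of the maximum. The 6 of 7 windows are thus near the share of all genes. For 6 of the genes the maximum was in annotated 3′UTR, as for 56.9% of all genes. In Sod1 it lay 23 nt, in Optn 36 nt and in Vcp 81 nt before the annotated end of the gene.

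The Tardbp maximum, at chr4:147991793, has more than one annotation. In the longest coding transcript, ENSMUST00000084125, it lies in the 3′UTR, 577 nt past the lowest base of the stop codon. An exon covers it in 10 annotated transcripts, and in 6 of them that exon begins at an acceptor 21 nt upstream. Some of these short transcripts read through it as coding sequence, and the counts of coding reads given below include it. The next highest maxima of Tardbp were 273 nt before the gene end and 5516 nt before it, and each held a YCAY.
Tardbp, chr4:147986750-147986779, minus strand: agccTCACacacatatttacctgcaagtca
Tardbp, chr4:147991993-147992022, minus strand: gcatgttcagagtagaaaCCATtggttaga
The next highest maxima of Vapb were in the last 1000 nt of the gene, and there YCAY lay within 6 nt of the maximum or on it.
Vapb, chr2:173608822-173608851, plus strand: cacgtcaacTCATcagctctccctgtaaca
Vapb, chr2:173609057-173609086, plus strand: aaaactgcctcctgtTCATgatCCATgtgg

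In the RNA of whole spinal cord, Sod1 and Sqstm1 were the most abundant of the genes and Optn the least. Levels are given as RPKM, reads per kb of exon and per 1000000 reads on genes, so that genes of different length can be set side by side. No test was made on them, since there was 1 library of each sex.

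Sod1 had 258 RPKM in the male and 218 RPKM in the female library (238 ± 28.5, SD, n = 2), which placed it at rank 153 of 19215 genes. Sqstm1 had 225 and 202 RPKM (213 ± 16.1, SD, n = 2) and rank 184. The ranges of these genes overlapped, so their order was not resolved, and the Sod1 value may hold reads of the human transgene.

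Between Sqstm1 and the next gene, Chmp2b, the mean fell 5.63-fold. Chmp2b had 38.0 and 37.7 RPKM (37.8 ± 0.175, SD, n = 2) and rank 1839. Vapb had 35.0 and 35.6 RPKM (35.3 ± 0.400, SD, n = 2) and rank 1991. The ESCRT-III subunit and the contact-site anchor thus differed by 1.07-fold, although their ranges did not overlap.

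Vcp had 28.3 and 31.1 RPKM (29.7 ± 1.99, SD, n = 2) and rank 2403. Tardbp had 20.9 and 21.2 RPKM (21.02 ± 0.189, SD, n = 2) and rank 3430. Optn, the autophagy receptor that recognises ubiquitin chains, had 14.1 and 15.5 RPKM (14.8 ± 1.05, SD, n = 2) and rank 4677. Even Optn was above 75.7% of all genes, and from Chmp2b downwards no neighbouring ranges overlapped.

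**Figure D1:**
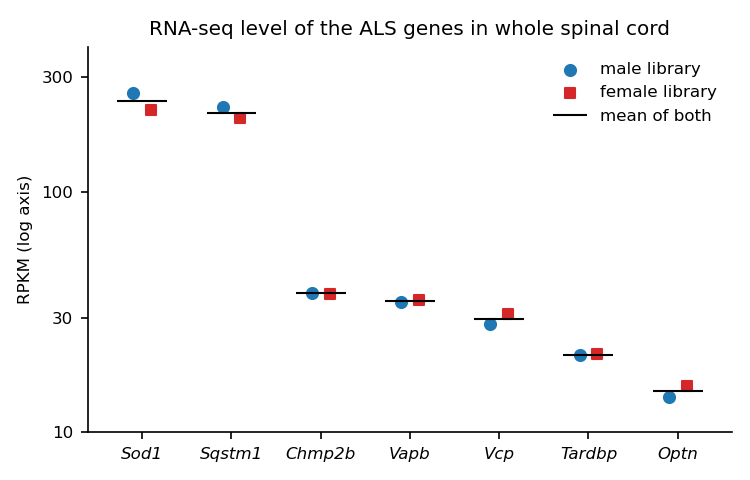
RPKM of the 7 genes (log axis) in the male library (circles) and the female library (squares), with the mean of both as a line. Sod1 and Sqstm1 stood above 200 RPKM in both libraries, and the other genes lay between 14.1 and 38.0 RPKM.

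Some of these levels were measured on sequence that is not unique. Of the 74-nt windows of the longest coding transcript, as long as the trimmed reads, 92.0% in Sod1 and 90.2% in Vcp had a copy elsewhere in the genome with at most 4 mismatches. The share was 20.5% in Tardbp and 5.50% in Sqstm1, and no such copy was found for Optn, Vapb or Chmp2b. The authors kept only reads with an unambiguous position, so reads from such windows may be missing or be placed by few bases. The RNA-seq kept no strand, and exons of Tardbp share 1817 nt (24.3%) with Masp2 on the opposite strand, those of Sqstm1 580 nt (17.3%) with 3010026O09Rik, and those of Vcp 352 nt (7.26%) with 1700022I11Rik. The mean RPKM of both libraries was 5.89 for Masp2, 8.23 for 3010026O09Rik and 0.0473 for 1700022I11Rik.

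None of the 7 genes differed by 1.5-fold between the male and the female library. The background was 8.68% of 13867 genes with at least 50 reads, and the median absolute difference of those genes was 0.158 on the log2 scale. This background takes in genes with few reads, whereas the 7 genes had at least 3364 reads in each library. The shares are thus not matched for depth and do not show these genes to be unusually alike. The largest difference was that of Sod1, higher in the male library by 0.24 (log2; 95% exact counting interval 0.21 to 0.28). Sqstm1 was higher in the male library by 0.15 (0.13 to 0.18). Vcp (−0.14) and Optn (−0.15) were higher in the female library, with intervals that did not reach 0. Chmp2b (0.01), Vapb (−0.02) and Tardbp (−0.02) had intervals that included 0. These intervals cover counting error only and say nothing on the spread between mice. The blood marker sum was 96.5 RPKM in the male and 39.3 RPKM in the female library, and the motoneuron marker sum 134 and 167 RPKM. Their part in these differences was not tested, and in bulk tissue fewer cells of a type and less RNA per cell cannot be told apart.

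Genes of the same pathways were also expressed. Of 28 other ALS genes measured, 26 had at least 1 RPKM (median 25.9 RPKM), and of the 27 with at least 50 reads Ccnf, at 0.507 and 0.336 RPKM and named after its values were seen, was the only one past 1.5-fold. All 11 genes of superoxide defence, 20 of VCP and its cofactors, 15 of selective autophagy and ATG8, 18 of the VAP family and its partners and 15 TDP-43 related RNA-binding genes had at least 1 RPKM. Of 14 genes of ESCRT-III and VPS4, 13 did. None of the genes of these pathway lists with at least 50 reads was past 1.5-fold, against the 8.68% of all such genes, a share not matched for depth. Below 50 reads, 1 other ALS gene and 1 ESCRT-III gene were past it. Some of the lists hold members of the 7 genes or share genes with each other.

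A cassette exon of Chmp2b was almost always skipped, and the only other one, in Optn, had too few reads to say. Chmp2b has a 56-nt cassette exon at chr16:65554264-65554319, on the minus strand, which is not an annotated exon of the GENCODE gene. It is printed with the flanking intron bases AG and GT in capitals, since it is the only exon of the 7 genes with enough reads to compare.
Chmp2b, chr16:65554262-65554321, minus strand: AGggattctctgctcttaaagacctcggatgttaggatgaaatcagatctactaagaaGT
Inclusion is the share of inclusion among junction reads, with the mean of both inclusion junctions set against the skipping junction. In the male library 1 read crossed an inclusion junction and 64 crossed the skipping junction, an inclusion of 0.775% (95% Wilson interval 0.0810% to 7.003%). In the female library these were 1 and 52 reads, an inclusion of 0.952% (0.0995% to 8.49%). No difference between the libraries was called (two-sided Fisher's exact test on reads, p = 1, adjusted p = 1), against a background of 4.26% of 9396 covered exons called at FDR ≤ 0.1. Such low inclusion was not rare, since 15.6% of the covered exons had a mean inclusion under 5%.

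The 129-nt cassette exon of Optn, at chr2:4983905-4984033 on the minus strand, is annotated and lies between the first exons of the gene. No inclusion junction read was seen in either library, with 9 skipping reads in the male and 26 in the female library. A count of 0 allows an inclusion of up to 33.3% and 11.5%, so inclusion was not detectable at this depth. The male library had 2 reads on the exon body. This exon had too few reads for the test. Sod1, Tardbp, Vcp, Vapb and Sqstm1 had no exon in the table.

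NOVA CLIP reads were most frequent on Vapb and Tardbp. The levels below are CLIP reads over the whole gene per 1000000 reads on genes (CPM). Only Tardbp and Vapb passed the filter on low counts and were tested between the Chat lines and WSC, among 4538 genes in all. By edgeR's quasi-likelihood test 27.6% of these genes were higher and 29.3% lower in the Chat lines at FDR ≤ 0.01.

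Vapb was lower in both motoneuron lines than in whole spinal cord. It had 68.3, 103, 75.5 and 116 CPM in the 4 Chat6 libraries and 80.3, 73.4, 76.1 and 72.5 CPM in the 4 Chat17 libraries. In WSC it had 206, 213, 185 and 177 CPM. Every Chat library was below every WSC library. How many of all tested genes were separated in this way was not counted, so this is not shown to be particular to Vapb. Means were 83.2 ± 17.0 CPM (SD, n = 8) and 195 ± 17.1 CPM (SD, n = 4), and the fitted difference was −1.20 on the log2 scale (SE 0.136; edgeR adjusted p = 2.1e-08). Of all tested genes 9.59% had a lower value. Chat6 alone gave −1.06 and Chat17 alone −1.31. By their read names, Chat replicates 1 and 2 were run on other sequencers than Chat replicates 3 and 4 and WSC, and the latter alone gave −1.23.

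For Tardbp the call depended on whether all reads on genes or only exonic reads of the libraries entered the fit. It had 178, 73.8, 164 and 185 CPM in Chat6 and 221, 139, 152 and 152 CPM in Chat17. In WSC it had 148, 127, 137 and 127 CPM. Chat6 replicate 2, with 5 reads, was the lowest of all libraries, and the groups overlapped. Means were 158 ± 42.5 CPM (SD, n = 8) and 135 ± 9.92 CPM (SD, n = 4). The fitted difference of 0.30 (SE 0.128; edgeR adjusted p = 0.037) did not pass the threshold of 0.01. Chat replicates 3 and 4 alone gave 0.30 (edgeR adjusted p = 0.053).

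When only exonic reads were counted and scaled to the exonic reads of each library, Tardbp was higher in the Chat lines by 1.08 on the log2 scale (SE 0.128; edgeR adjusted p = 1.5e-07). Its exonic CPM was then 198 to 477 in the 8 Chat libraries and 197 to 223 in the 4 WSC libraries. All Chat libraries but Chat6 replicate 2 were above WSC. The reads of Tardbp itself were nearly the same in both fits, since 241 of 243 Chat reads and 1851 of 1876 WSC reads were exonic. For this gene the fits thus differed mainly in the other reads to which it was scaled. Vapb stayed lower, by −0.64 (SE 0.143; edgeR adjusted p = 0.00052), with 147 to 243 exonic CPM in the Chat lines and 274 to 322 in WSC. In this fit 23.5% of 2243 genes were higher and 24.5% lower. The exonic call of Vapb was not stable. Without Chat17 replicate 4, the deepest Chat library, Vapb was −0.56 and missed the threshold (edgeR adjusted p = 0.018), as it did with the replicate number as a block (−0.59; edgeR adjusted p = 0.018). With Chat replicates 3 and 4 and WSC, which ran on the same sequencer, Vapb was −0.65 (edgeR adjusted p = 0.0024) and Tardbp 1.11 (edgeR adjusted p = 1.3e-10), where 10.6% of 6908 genes were higher and 12.8% lower.

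**Figure D2:**
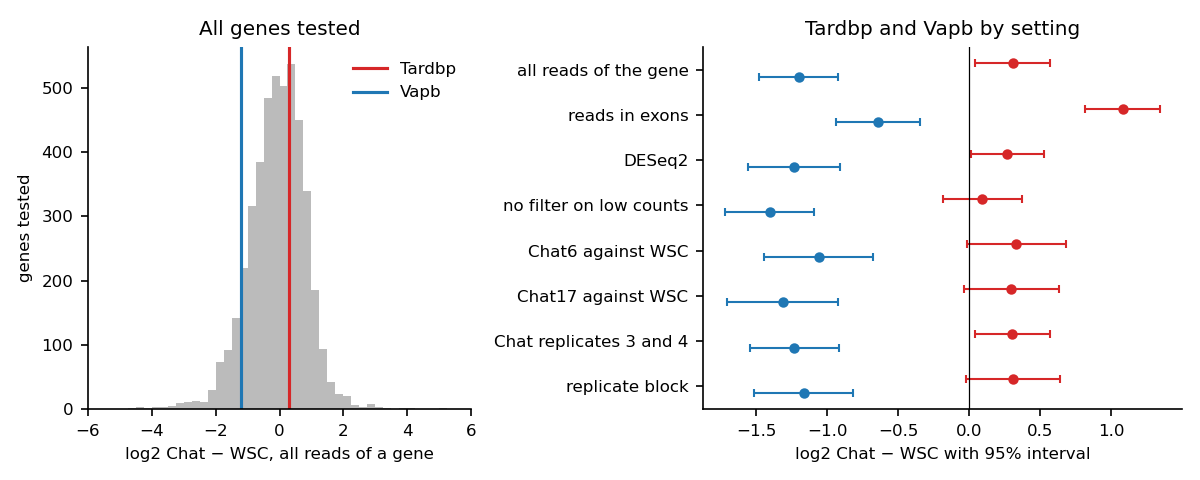
Left, histogram of the log2 difference Chat minus WSC of the 4538 genes tested, with the values of Tardbp (0.30) and Vapb (−1.20) as lines; right, the value of both genes (points) with its 95% interval in 8 settings. Vapb lay below 0 in each of the 8 settings plotted, and Tardbp lay at 1.08 with exonic reads and between 0.09 and 0.33 in the other 7 settings plotted.

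No difference between the Chat lines was called for either gene. Chat17 minus Chat6 was −0.05 (SE 0.215; 95% interval −0.49 to 0.39) for Tardbp and −0.28 (SE 0.269; 95% interval −0.83 to 0.27) for Vapb. Over all 4538 genes edgeR called 0 at FDR ≤ 0.01, with 217 at an unadjusted p under 0.05, and DESeq2 called 1.

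The other 5 genes had too few reads in the Chat libraries for the test. Sod1 had 0, 0, 6.29 and 0 CPM in Chat6, 0, 0, 15.2 and 10.4 CPM in Chat17, and 8.46, 6.69, 6.16 and 5.68 CPM in WSC. Vcp had 27.3, 0, 9.43 and 0 CPM in Chat6, 20.1, 0, 0 and 7.39 CPM in Chat17, and 9.93, 5.07, 7.92 and 6.25 CPM in WSC. For both genes the limit that 0 reads allow, 3 reads a library, was above the WSC mean in 7 of 8 Chat libraries, so a difference was not detectable at this depth. This limit ran from 4.44 to 60.2 CPM over the Chat libraries.

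Optn had 13.7, 29.5, 9.43 and 5.79 CPM in Chat6, 0, 0, 15.2 and 20.7 CPM in Chat17, and 14.3, 20.3, 18.2 and 20.4 CPM in WSC. Chmp2b had 41.0, 29.5, 31.4 and 17.4 CPM in Chat6, 40.1, 8.16, 15.2 and 26.6 CPM in Chat17, and 34.6, 31.8, 32.3 and 24.98 CPM in WSC. In both genes the groups overlapped. Sqstm1 had 41.0, 0, 25.2 and 11.6 CPM in Chat6, 140, 8.16, 0 and 11.8 CPM in Chat17, and 38.6, 17.6, 26.8 and 28.96 CPM in WSC. The highest Sqstm1 value rested on 7 reads, and its groups overlapped too.

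Pooled over libraries, the ratio of Chat to WSC CPM was 0.961 for Sod1 (95% exact counting interval 0.446 to 1.85), 1.00 for Vcp (0.485 to 1.87), 0.770 for Optn (0.474 to 1.19), 0.817 for Chmp2b (0.576 to 1.13) and 0.718 for Sqstm1 (0.474 to 1.05). All 5 intervals included 1, but the ratios rested in part on single libraries. Without Chat17 replicate 4, which held 7 of the 10 Sod1 and 14 of the 22 Optn reads of the Chat lines, the ratio was 0.512 for Sod1 (0.104 to 1.54) and 0.498 for Optn (0.213 to 0.996). Without Chat17 replicate 1 it was 0.562 for Sqstm1 (0.348 to 0.865). The last 2 intervals did not include 1. In a fit without the filter their log2 differences ran from −0.62 to −0.11, where the median of all 16420 genes was −0.47, and none passed the threshold. In that fit 6.40% of genes were higher and 16.2% lower.

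**Figure D3:**
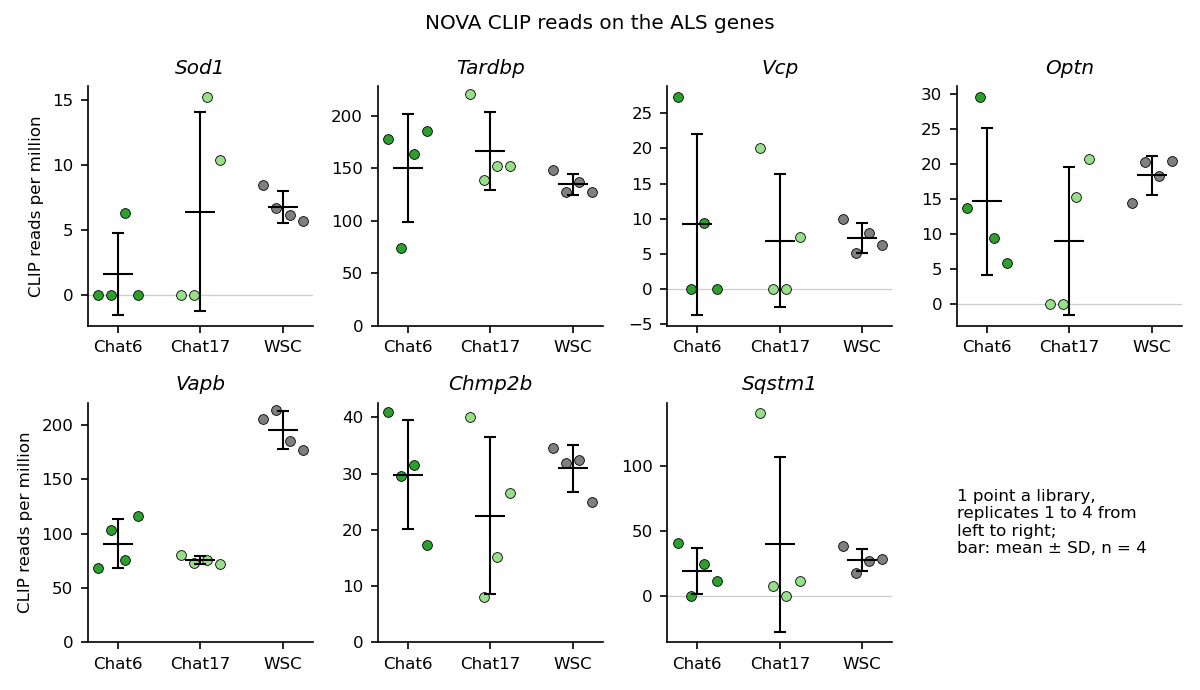
NOVA CLIP level (CPM) for each of the 7 genes, 1 point a library, with the mean and SD of the 4 libraries of Chat6, Chat17 and WSC. In Vapb all 8 Chat points lay below the 4 WSC points, and in the other 6 genes the groups overlapped. The share of all tested genes without overlap was not counted.

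The order of the genes by NOVA CLIP was not their order by RNA. In WSC, exonic CLIP CPM per kb of exon were 41.9 for Vapb, 28.1 for Tardbp, 21.2 for Chmp2b, 13.4 for Sod1, 12.3 for Sqstm1, 4.38 for Optn and 1.49 for Vcp. Vapb and Tardbp, at ranks 4 and 6 of the 7 genes in RNA, led in CLIP. Exon lengths differed from those behind the RPKM, most in Vcp (4851 against 3271 nt) and Sqstm1 (3356 against 2008 nt). Before division by length, exonic CPM over the WSC libraries ran from 7.063 to 10.63 for Sod1 and from 26.65 to 54.27 for Sqstm1. The order of these genes in CLIP was thus not resolved. Exonic CLIP reads of Sod1 and Vcp may have been lost to the copies named above, which was not tested. Vapb was above 94.5% of genes and Vcp above 57.4%. The CLIP mice did not carry the SOD1 transgene, so the RNA and CLIP values of Sod1 come from different genotypes.

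Where the CLIP reads lay differed from gene to gene. In Vapb 95.01% of the 2765 pooled WSC reads were in 3′UTR and 3.80% in introns (95% exact interval 3.12% to 4.58%). In Tardbp 71.8% of 1876 reads were in 3′UTR, 26.9% in coding sequence and 1.33% in introns (0.864% to 1.961%). In Vcp and Optn the intronic share was larger, 40.4% of 99 reads (30.7% to 50.7%) and 42.2% of 258 reads (36.1% to 48.5%). Sod1, Chmp2b and Sqstm1 had 22.3%, 22.4% and 6.58% of reads in introns. If exonic reads of Vcp and Sod1 were lost to the copies named above, their intronic shares would be too high, which was not tested.

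**Figure D4:**
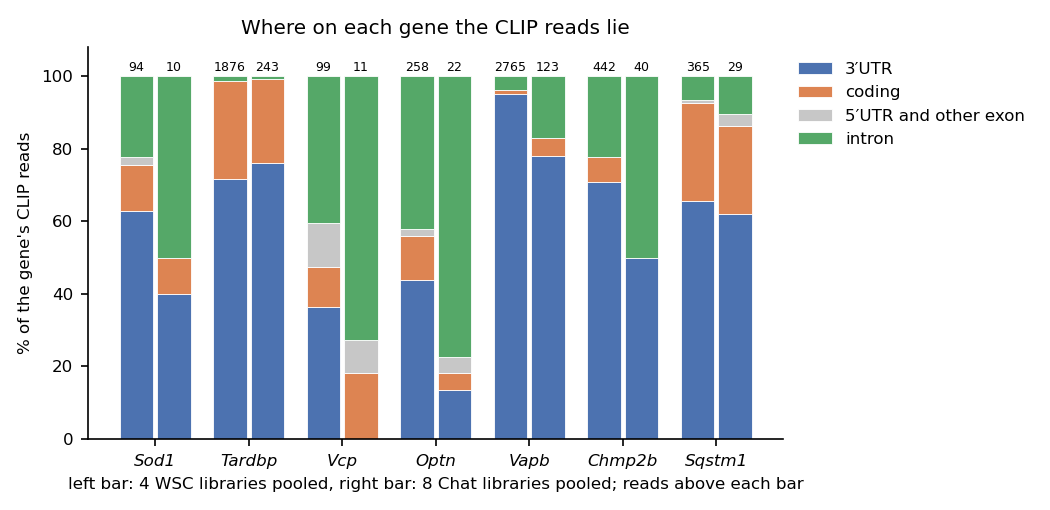
Share of each gene's CLIP reads in 3′UTR, coding sequence, other exons and introns, for 4 pooled WSC libraries (left bar) and 8 pooled Chat libraries (right bar), with the number of reads above each bar. Intron shares were larger in the Chat bars for all genes but Tardbp, where 2 of 243 reads were intronic.

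In the pooled Chat libraries intronic reads were 17.1% of 123 reads on Vapb (10.9% to 24.9%), 50% of 40 reads on Chmp2b (33.8% to 66.2%) and 77.3% of 22 reads on Optn (54.6% to 92.2%). On Tardbp they were 0.823% of 243 reads (0.0998% to 2.94%), an interval that includes the WSC value. These intervals cover counting error only, not the spread between libraries. Chat17 replicate 4 alone held 12 of the 21 intronic reads on Vapb, 8 of the 20 on Chmp2b and 11 of the 17 on Optn. No member had 10 reads in every library, and so none entered the permutation test of the intronic share, in which 75.9% of 961 genes had a larger share in the Chat lines.

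A model of intronic against exonic reads, added after this was seen, could be fitted for 4 of the genes. The intron-to-exon ratio was higher in the Chat lines by 2.39 on the log2 scale for Vapb (SE 0.481; edgeR adjusted p = 2.5e-06), by 2.16 for Optn (SE 0.758; adjusted p = 0.0077), by 1.84 for Chmp2b (SE 0.551; adjusted p = 0.0017) and by 1.93 for Vcp (SE 1.03; adjusted p = 0.081). All 4 passed FDR ≤ 0.1, but so did 77.2% of 6311 genes in this direction and 0.364% in the other, with a median of 1.69. Sod1, Tardbp and Sqstm1 had too few intronic reads for this model.

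The places of highest coverage in the Chat and WSC libraries lay close together for 5 of the 7 genes, of which Sod1 and Optn had few Chat reads. The pooled Chat maximum lay 16 nt from the WSC maximum in Tardbp, 22 nt in Vapb, 12 nt in Sqstm1 and Sod1 and 8 nt in Optn. In Chmp2b they lay 539 nt apart and in Vcp 13588 nt. Of 4843 genes with a Chat coverage of at least 5 reads, 49.8% had both maxima within 50 nt. In Sod1, Vcp, Optn and Chmp2b the Chat maximum was only 2 to 4 reads deep, so these genes did not meet that minimum of 5 reads. Where positions tied in depth, the midpoint of the first unbroken run of them by coordinate was taken, so the place of so shallow a maximum is uncertain.

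Within 50 nt of the WSC maximum of Tardbp lay 66, 109, 111 and 31 reads in the WSC libraries. These were 16.9% of the gene's WSC reads (13.8% to 17.8% over libraries) and stood beside 34 reads, or 14.0%, in the Chat libraries. On Vapb the same window held 10.6% of reads in WSC and 10.6% in Chat. On Sqstm1 it held 36.4% and 34.5%. On the other genes the share was lower in Chat, with 16.5% and 7.50% on Chmp2b (3 of 40 Chat reads), 25.6% and 9.09% on Optn (2 of 22), 62.8% and 40% on Sod1 (4 of 10) and 32.3% and 0% on Vcp (0 of 11). Near the gene end of Tardbp the shares were 11.6% in WSC and 6.17%, from 15 reads, in Chat. The windows were placed on the WSC reads, so that these shares are a description and were not tested.

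**Figure D5:**
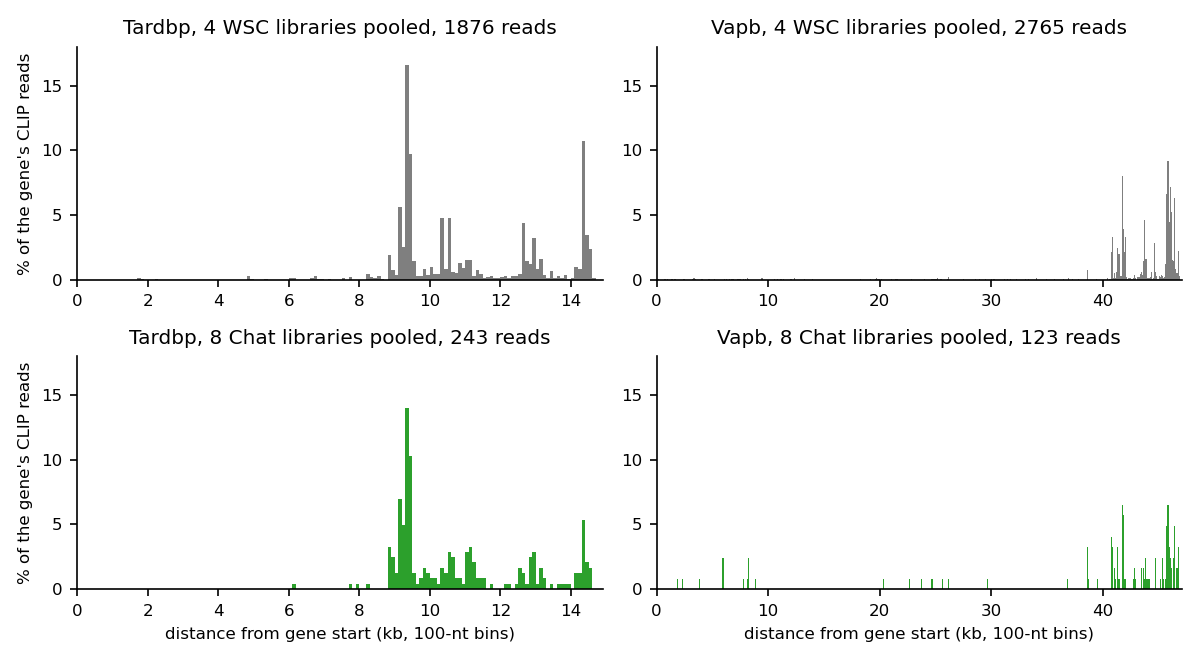
Share of the CLIP reads of Tardbp (left) and Vapb (right) in 100-nt bins along the gene from its start (kb), for the pooled WSC libraries (top) and the pooled Chat libraries (bottom). On Tardbp the highest bin of both, 9.3 kb from the start, held 16.6% of WSC and 14.0% of Chat reads. On Vapb the reads crowded into the last 7 kb, with scattered intronic reads in both (3.80% of WSC and 17.1% of Chat reads).

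Other genes of the same pathways were called in both directions between the Chat lines and WSC, to be read against the 27.6% and 29.3% of all tested genes. Of 18 other ALS genes tested, 8 were higher, 5 lower and 5 not called, with a median log2 difference of 0.28. Kif5a, a motor for axonal transport, was lower by −1.46 (edgeR adjusted p = 9.2e-10). Erbb4, a neuregulin receptor, was lower by −1.01, and Tuba4a, an alpha-tubulin, by −1.64. The kinase gene Nek1 was higher by 1.13 (edgeR adjusted p = 1.3e-09).

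Of 13 TDP-43 related RNA-binding genes tested, 5 were higher and 3 lower, with a median of 0.27. Ewsr1 (1.02) and Tial1 (0.85), which encode RNA-binding proteins, were higher, and Hnrnpd (−1.16), which encodes a binder of AU-rich elements, was lower. This list holds Tardbp, and Ewsr1 is also among the other ALS genes. Of 14 tested genes of the VAP family and its partners, Vapb among them, 5 were higher and 3 lower. Osbpl8 (0.56), Vps13a (0.55) and Osbpl3 (1.27), lipid transfer genes, were higher. Vapa, the paralog of Vapb, had −0.02 (edgeR adjusted p = 0.90).

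Of 13 genes of VCP and its cofactors tested, 1 was higher and 3 lower. Faf1, a ubiquitin-binding cofactor, was higher by 0.93, and Svip (−0.60), Ubxn7 (−0.43) and Ubxn2a (−0.65) were lower. Of 6 genes of selective autophagy and ATG8, 1 was higher and 4 lower, with a median of −0.55. Tollip (−1.45), Wdfy3 (−0.56) and Fam134b (−0.53) were lower, and Gabarapl1 (0.52), an ATG8 protein, was higher. Of 5 genes of ESCRT-III and VPS4, Vta1 (1.00), a VPS4 cofactor, was higher and Chmp4b (−0.92), the main filament subunit, lower. Of 2 tested genes of superoxide defence, Prdx3, a mitochondrial peroxidase, was lower by −1.26, and Sod2, the mitochondrial superoxide dismutase, was not called (0.26; edgeR adjusted p = 0.082). With reads of the whole gene, Tardbp was not called among these lists and Vapb was.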

How the data were processed

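RNA-seq of whole spinal cord (2 libraries) and NOVA HITS-CLIP (12 libraries) were analysed. For RNA-seq the authors shortened reads to 74 nt, placed them on mm9 by OLego, kept unambiguous positions and deposited read counts per gene, the RPKM made from them, and read counts per cassette exon. For CLIP the authors mapped reads with Novoalign to mm9 (per their methods), removed misprimed reads and deposited unique read positions. The labels of the series name mm10 beside mm9 as a genome build, and the CLIP positions were read as mm9 here. Depth is given with the results. Intervals and floors (3 counts) were made from read counts and cover counting error only. The RNA-seq reads carry no molecular identifiers, so duplicates may make the RNA-seq intervals too narrow. The labels call the CLIP libraries of a group biological replicates.

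CLIP reads were assigned by midpoint and strand to protein-coding genes of GENCODE vM1 on NCBIM37, which is mm9, leaving out positions shared by genes (72.2% to 80.9% of reads were assigned). Counts were compared by edgeR 4.0.16 in R 4.3.3 (TMM, filterByExpr, quasi-likelihood test, 3 groups, mean of Chat6 and Chat17 minus WSC, FDR ≤ 0.01), with DESeq2 1.42.0 as an alternative. Intronic shares were tested by exact permutation over libraries (495 arrangements, at least 10 reads in every library, FDR ≤ 0.1). The intron-against-exon model used edgeR with the library as a block and needed 30 exonic and 30 intronic reads in all and 10 in the Chat lines. Cassette exons needed 10 junction reads in each library (Fisher's exact test, SciPy 1.17.1). Copies were searched with blastn 2.17.0. The Benjamini-Hochberg adjustment ran over all genes or exons tested, and each test across many genes was first tested on simulated data. Replicate numbers were shared between groups, but only 3 of 12 same-numbered pairs deviated together with a correlation over 0.1, so the numbers were not taken to pair libraries. These 3 were among the 4 pairs of Chat6 with Chat17, whose libraries of 1 number ran on the same sequencer by their read names, and none was among the 8 pairs with WSC.

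The 7 genes and the gene lists were chosen with earlier results of these data known. From each list up to 4 genes with the smallest adjusted p in CLIP were named, or only the called ones where fewer were called, and 1 gene that this rule names is not reported here. Ccnf, Vapa and Sod2 were named after their values were seen.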

Additional observations from a re-analysis of the deposited data

Results flagged for a closer look

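Out of 21 groups of 4 examined for the 7 genes in CLIP, 3 held a library flagged as high. The gap to the next value was more than 0.829 of the range. This rule flags about 1 group in 20 by chance for normal values of equal precision. CPM from few reads at unequal depth are not such values, so that rate does not apply here. Sqstm1 had 140.5 CPM in Chat17 replicate 1, the shallowest library, from 7 reads. Tardbp had 220.8 CPM in the same library, from 11 reads. Sod1 had 6.289 CPM in Chat6 replicate 3, from 2 reads, with 0 reads in the other Chat6 libraries. This value was below the limit of 3 reads in every Chat6 library (9.433 to 44.31 CPM), so it is not shown to stand above them.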

How the results depend on the processing

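Of 210 values under another setting, 171 kept their direction and their side of the threshold or moved by less than their error or by under 1.5 times. Ranked by CPM, not per length, Sqstm1 came to rank 1, Vapb 2, Tardbp 3, Sod1 4 and Chmp2b 6, with Vcp and Optn in place. With no filter, 2115 genes in place of 1204 were past 1.5-fold between the RNA-seq libraries, and with junction reads only 122 exons in place of 400 were called. In CLIP, 1253 genes were called higher and 1329 lower in the Chat lines. With exonic reads only these were 526 and 550, with intronic reads only 322 and 425, and without the filter 1051 and 2652. Leaving out each library gave 905 to 1409 higher and 943 to 1483 lower. With the replicate number as a block, 985 were higher and 1094 lower, Vapb was −1.17 and Tardbp 0.31 (adjusted p = 0.10). Vapb was called in every setting with reads of the whole gene (−1.28 to −1.11 when libraries were left out). Tardbp was called in none of these (0.24 to 0.36 when libraries were left out), and with exonic reads it was called throughout (1.01 to 1.11, and 1.07 with the replicate block). Vapb with exonic reads missed the threshold with the replicate block (−0.59, edgeR adjusted p = 0.018) and without Chat17 replicate 4, the deepest Chat library (−0.56, adjusted p = 0.018). The cause of these changes was not tested. A larger intronic share was called for 729 genes and a smaller one for 2. With at least 20 reads these were 343 and 1, from fewer genes tested, with Chat replicates 3 and 4 only 1109 and 7, in the intron-against-exon model 4874 and 23, and with libraries left out 676 to 896 and 2 to 6. The permutation test has no block. Settings with exonic reads and a library left out, the block or Chat replicates 3 and 4 only, pooled ratios with a library left out, and the intron-against-exon model were chosen after seeing the data. Depth limits Sod1, Vcp, Optn, Chmp2b and Sqstm1, which passed the filter only in some settings with fewer libraries and were called in none (lowest adjusted p 0.072, Sqstm1, Chat replicates 3 and 4).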
